A study of Mus musculus with 57 samples.

Results

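The circadian clock genes were followed across 3 brain regions of individual mice that had drunk ethanol by choice. The set held 10 genes, Arntl, Clock, Per1, Per2, Per3, Cry1, Cry2, Nr1d1, Nr1d2 and Dbp, and was taken by symbol, as every probeset on the array annotated to one of them. These were 16 of 22626 probesets, and all 16 passed the filter on low values, which kept 19815. A probeset is a group of short probes that together report 1 transcript. Each gene was represented by its probeset with the highest mean, and the other probesets of Per2 and Nr1d2 are also given, because their calls between regions differed from those of the first.

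RNA from the nucleus accumbens (NAc), the prefrontal cortex (PFC) and the ventral midbrain region (VMB, which includes the ventral tegmental area) was hybridised to Affymetrix mouse expression arrays, 19 per region and 57 in all, each from 1 mouse. All were male mice of the inbred strain C57Bl/6NCrl, so the mice within a region were individuals of 1 strain. The groups were set by region, but the deposited intensity scale also differed between regions, and each region lacked a different one of the numbered mice. Every mouse had chosen between 10% (w/v) ethanol and water in 16 sessions of 18 h and was killed 6 days after the last session. Mice that never drank ethanol were not part of the design, and the time of day of tissue collection is not given in the sources used here. The samples were dissected pieces of tissue, so fewer cells of a type and less RNA per cell cannot be told apart. Intake of single mice is not given in the labels or files, and the relation of the clock genes to drinking was not analysed here.

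The circadian clock is a loop of transcription and repression that runs in nearly every cell and takes about a day. Arntl (also called Bmal1) and Clock form a pair that binds E-box sequences and switches on the Per and Cry genes, whose proteins return to the nucleus and block the pair. Nr1d1 and Nr1d2, the nuclear receptors REV-ERB alpha and beta, are also switched on by the pair and repress Arntl through ROR elements, while Dbp, a transcription factor of the D-box family, is a direct output. In a tissue sampled across the day, Arntl transcripts typically peak out of phase with Dbp, Nr1d1 and the Per genes. In forebrain and midbrain the loop runs outside the suprachiasmatic nucleus, the master clock, and Per1 and Per2 also answer to neuronal activity and glucocorticoids.

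The promoters of 5 members are shown because they hold elements through which the loop is known to act. Entries in the RefSeq table (build GRCm38.p6) were found for 9 of the 10 members, with 13 windows of the 250 bases before a start site, and Per2 has no entry there. Capitals mark the E-box CACGTG, its variant AACGTG or CACGTT, the D-box TTATGTAA or TTACATAA, and AGGTCA or TGACCT, the core of a ROR element, each searched on both strands. The E-box lay in 6.02% of all 32851 windows of this length, the variant in 3.85%, the D-box in 0.819% and the ROR core in 14.02%.
Per1, first window, chr11:69098699-69098948, plus strand: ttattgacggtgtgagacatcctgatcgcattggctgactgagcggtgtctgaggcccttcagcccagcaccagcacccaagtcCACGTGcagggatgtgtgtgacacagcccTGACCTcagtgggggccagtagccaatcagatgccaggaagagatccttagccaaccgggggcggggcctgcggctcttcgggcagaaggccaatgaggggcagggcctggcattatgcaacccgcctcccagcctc
Cry1, chr10:85185055-85185304, minus strand: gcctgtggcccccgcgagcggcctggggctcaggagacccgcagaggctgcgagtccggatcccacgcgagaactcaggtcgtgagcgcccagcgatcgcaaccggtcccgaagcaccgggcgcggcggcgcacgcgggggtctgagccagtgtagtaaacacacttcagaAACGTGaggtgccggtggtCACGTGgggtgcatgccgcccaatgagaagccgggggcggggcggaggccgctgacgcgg
Cry2, chr2:92434070-92434319, minus strand: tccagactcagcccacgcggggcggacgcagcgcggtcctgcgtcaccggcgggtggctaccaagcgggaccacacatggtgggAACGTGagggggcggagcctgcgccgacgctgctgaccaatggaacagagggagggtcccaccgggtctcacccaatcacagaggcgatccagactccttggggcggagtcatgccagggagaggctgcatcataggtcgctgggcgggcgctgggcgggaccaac
Nr1d1, chr11:98775378-98775627, minus strand: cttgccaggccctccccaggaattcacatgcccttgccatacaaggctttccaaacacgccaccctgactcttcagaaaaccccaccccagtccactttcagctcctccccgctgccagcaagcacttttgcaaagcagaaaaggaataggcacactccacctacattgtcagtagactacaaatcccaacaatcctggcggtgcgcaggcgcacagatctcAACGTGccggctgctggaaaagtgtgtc
Nr1d2, chr14:18239107-18239356, minus strand: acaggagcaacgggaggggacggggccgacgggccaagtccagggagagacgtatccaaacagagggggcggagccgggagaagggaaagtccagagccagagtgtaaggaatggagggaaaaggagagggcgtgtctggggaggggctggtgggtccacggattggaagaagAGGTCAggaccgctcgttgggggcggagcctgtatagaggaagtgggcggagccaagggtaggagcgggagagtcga
Among the 9 genes, 2 carried the E-box, Per1 at 161 and Cry1 at 55 bases before the start. The variant was present in 3, Cry1, Cry2 and Nr1d1, and in Nr1d1 it lay 23 bases before the start. The ROR core was present in Per1, in Nr1d2 and in 1 of the 3 windows of Clock. Per3 held the D-box in 2 places, and the windows of Dbp and Arntl held none of these letters. A match of letters describes the window and is not a site of binding.

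The dissections carried the markers of their labels. On a scale common to all arrays, markers of striatal projection neurons averaged 10.2 in NAc against 6.95 in PFC and 7.49 in VMB, those of cortical excitatory neurons averaged 8.41 in PFC against 6.32 and 4.47 in NAc and VMB, and those of dopamine neurons averaged 7.40 in VMB against 5.85 and 4.62 in NAc and PFC. The PFC array of mouse 20 carries a PFC title and a ventral tegmental area label elsewhere. Its mean correlation was 0.995 with the other PFC arrays and 0.941 with VMB arrays, and its cortical markers averaged 8.36, so it was kept as PFC. All values are log2 intensities, so a difference of 1 is a doubling, and levels are not compared between genes because probes differ in brightness. The deposited arrays had medians of 6.26 to 6.32 in NAc, 5.66 to 5.7 in PFC and 5.79 to 5.86 in VMB, so regions were compared after quantile normalization of all arrays together and relations within a region used the values as deposited.

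Of the clock genes, Per2 differed most in level between regions. It was lowest in VMB, higher in NAc and highest in PFC. Cry2, Arntl and Dbp were also lowest in VMB, Nr1d2 was highest there, Cry1 was highest in NAc and Nr1d1 in PFC. Clock, Per1 and Per3 passed in none of the 3 comparisons. A member was called at an adjusted p under 0.01 over all probesets and a difference of at least 0.5. By that rule 3 of 10 members were called between NAc and PFC, 4 between NAc and VMB and 3 between PFC and VMB, beside 26.3%, 30.5% and 29.3% of all probesets. The share of members called was thus near that of all probesets in each comparison. The median difference of the 10 members was -0.14, 0.40 and 0.39, in that order, against 0.03, 0.02 and -0.02 over all probesets.

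**Figure D1:**
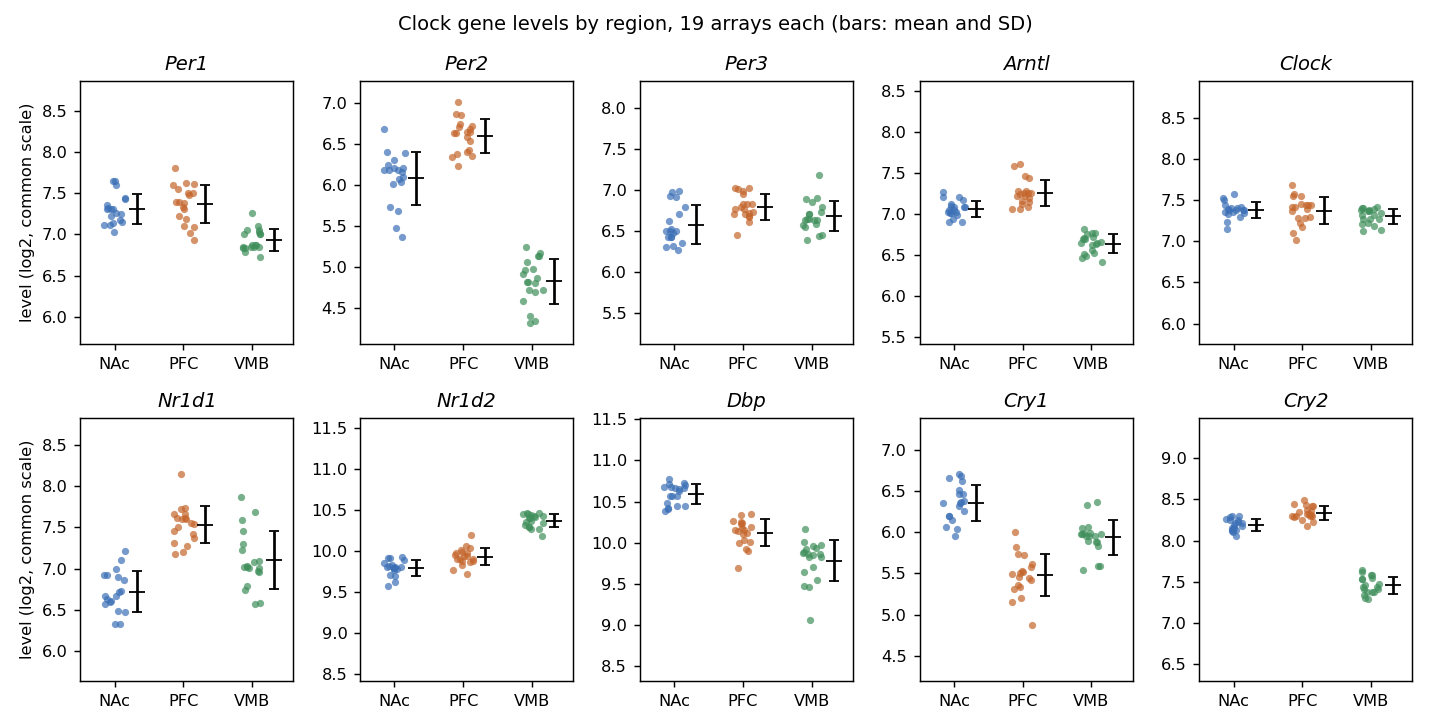
Level of each clock gene in every mouse (log2 intensity on the common scale, vertical axes of equal span placed differently for each gene) by region, 19 arrays per region, with bars at the mean and SD. The points of Per2, Arntl and Cry2 in VMB lie below all points of NAc and PFC.

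Among the activators, Arntl was at 6.90, 7.05 and 7.27 in NAc (lowest, median and highest of 19 mice), at 7.06, 7.25 and 7.61 in PFC and at 6.42, 6.65 and 6.82 in VMB. All VMB mice lay below all NAc and PFC mice, while NAc and PFC overlapped. Arntl was 0.62 ± 0.042 (SE) higher in PFC than in VMB, or 1.54-fold (adjusted p = 1.08e-20), and 0.42 higher in NAc than in VMB, which missed the minimum difference. Clock, its partner, was at 7.15, 7.38 and 7.58 in NAc, at 7.01, 7.41 and 7.69 in PFC and at 7.13, 7.32 and 7.42 in VMB. The ranges of Clock overlapped in all 3 regions and its largest mean difference was 0.08 (SE 0.041, adjusted p = 0.0796), between NAc and VMB.

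Of the Period genes, which encode repressors of the pair, Per2 was at 5.36, 6.18 and 6.68 in NAc, at 6.23, 6.64 and 7.01 in PFC and at 4.32, 4.82 and 5.25 in VMB. Every VMB mouse lay below every NAc and PFC mouse, and NAc and PFC overlapped. The difference was 1.77 ± 0.085 between PFC and VMB, a 3.41-fold higher level in PFC (adjusted p = 1.30e-27), and 1.26 between NAc and VMB, or 2.39-fold (adjusted p = 1.52e-20). Per2 was 0.51 ± 0.085 lower in NAc than in PFC (adjusted p = 2.69e-07), close to the minimum difference, and this turned to 0.12 higher (adjusted p = 0.169) on the deposited scale and fell short of the minimum without the PFC array of mouse 20, at -0.49. Its other probeset showed differences of 0.19, 0.23 and 0.04 between NAc and PFC, NAc and VMB, and PFC and VMB, and was called in none. The probeset that represents Per2 reached the filter value of 4.5 on 54 of 57 arrays, so its VMB levels lay near the low end of the scale.

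Per1 was at 7.03, 7.30 and 7.65 in NAc, at 6.93, 7.39 and 7.81 in PFC and at 6.72, 6.87 and 7.26 in VMB. Its mean was 0.38 and 0.44 higher in NAc and PFC than in VMB, at adjusted p = 1.03e-07 and 2.02e-09 but under the minimum difference, and its ranges overlapped. Per3 was at 6.27, 6.50 and 6.98 in NAc, at 6.45, 6.77 and 7.03 in PFC and at 6.40, 6.65 and 7.18 in VMB. Its widest difference was 0.22 ± 0.062 between NAc and PFC, lower in NAc (adjusted p = 0.00144).

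The Cryptochrome genes encode the partners of the PER proteins and ran in different orders over the regions. Cry1 was at 5.95, 6.36 and 6.71 in NAc, at 4.87, 5.49 and 6.00 in PFC and at 5.54, 5.96 and 6.36 in VMB. It was 0.88 ± 0.073 higher in NAc than in PFC, or 1.84-fold (adjusted p = 8.78e-17), with a small overlap between the lowest NAc and the highest PFC mice. Cry2 was at 8.06, 8.19 and 8.30 in NAc, at 8.18, 8.32 and 8.49 in PFC and at 7.29, 7.44 and 7.64 in VMB. All VMB mice were below all others, by 0.73 ± 0.030 against NAc (1.66-fold, adjusted p = 6.70e-31) and by 0.88 ± 0.030 against PFC (1.84-fold, adjusted p = 5.16e-35).

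The receptors Nr1d1 and Nr1d2, which repress Arntl, also had different orders. Nr1d1 was at 6.32, 6.67 and 7.21 in NAc, at 7.18, 7.55 and 8.15 in PFC and at 6.57, 7.02 and 7.87 in VMB. It was 0.82 ± 0.088 lower in NAc than in PFC, or 1.76-fold (adjusted p = 1.44e-12), where the 2 ranges met only at their ends, and on the deposited scale this was -0.19 and did not pass. Nr1d2 was at 9.57, 9.80 and 9.93 in NAc, at 9.71, 9.93 and 10.19 in PFC and at 10.18, 10.40 and 10.46 in VMB. All NAc mice lay below all VMB mice, with a difference of -0.57 ± 0.032 (1.49-fold, adjusted p = 3.40e-24) that came to 0.082 in the other direction (adjusted p = 0.0424) on the deposited scale. The other Nr1d2 probeset was lower in NAc than in VMB on both scales, by a difference of -1.48 ± 0.143 (adjusted p = 2.70e-14) on the common and -0.95 on the deposited one. It was also called between NAc and PFC, at -1.17 ± 0.143 (2.25-fold, adjusted p = 7.84e-11), or -0.54 as deposited, where the first probeset was at -0.14.

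Dbp, the output gene, was at 10.39, 10.62 and 10.78 in NAc, at 9.70, 10.15 and 10.35 in PFC and at 9.06, 9.86 and 10.17 in VMB. Every NAc mouse lay above every PFC and every VMB mouse, while PFC and VMB overlapped. The level was 0.81 ± 0.060 higher in NAc than in VMB (1.75-fold, adjusted p = 7.18e-19) and 0.47 ± 0.060 higher than in PFC (adjusted p = 3.41e-10), the latter under the minimum difference. In PFC it was 0.34 ± 0.060 higher than in VMB (adjusted p = 9.48e-07), also under it.

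The scale decided several of these calls. On the deposited values the median of all probesets was 0.72 higher in NAc than in PFC, 0.55 higher in NAc than in VMB, and in PFC it was -0.18 against VMB. There 6 members were called between NAc and PFC, 7 between NAc and VMB and 4 between PFC and VMB. Beside them, 14106, 11618 and 6725 of all 19815 probesets were called, in that order. All 13 of the member calls involving NAc were higher in NAc. Over all probesets, 2599 were called higher and 2617 lower in NAc than in PFC on the common scale, against 13585 and 521 on the deposited one. The lower levels of Per2, Arntl and Cry2 in VMB than in PFC were called on both scales, as were the higher level of Cry1 in NAc than in PFC and those of Per2, Dbp and Cry2 in NAc than in VMB. Because the deposited scale placed NAc higher over all probesets, it is no independent check of the calls higher in NAc.

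Of 17 further genes of the clock and its outputs, 13 were tested, and 4, 7 and 6 were called between NAc and PFC, NAc and VMB, and PFC and VMB, beside the 26.3%, 30.5% and 29.3% of all probesets. Npas2, which can take the place of Clock in the forebrain, was 2.72 ± 0.060 higher in PFC and 2.20 ± 0.060 higher in NAc than in VMB. Rora, whose receptor activates Arntl at the elements that the REV-ERB receptors repress, was lower in NAc and PFC than in VMB, with differences of -1.94 ± 0.086 and -1.601 ± 0.086. Between NAc and PFC all 4 were lower in NAc, namely Npas2, Rorb, Bhlhe40 and Hlf, a relative of Dbp (-1.45 ± 0.062), though on the deposited scale Npas2 and Rorb came to 0.10 and 0.064 in the other direction. The comparison of NAc with VMB gave 3 higher and 4 lower ones, and between PFC and VMB 5 were higher in PFC and 1 lower. The medians of the list were -0.28, 0.12 and 0.29 in the 3 comparisons.

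The clock genes differed in how much mice of 1 region varied. Per2 was among the most variable, with an SD above that of 94.1% of all probesets in NAc, 86.4% in PFC and 79.4% in VMB, and its highest NAc mouse was 2.57-fold above its lowest. Nr1d1 had an SD above that of 71.3%, 90.7% and 93.4% of probesets and spanned 2.27-fold in VMB and 2.02-fold in PFC. Cry2 lay at the other end, above only 1.74%, 7.66% and 22.6%, and spanned 1.20-fold in NAc. Clock was narrow in NAc and VMB, at 13.3% and 6.85%, and wider in PFC, at 72.2%. The median SD of all probesets was 0.171 in NAc, 0.139 in PFC and 0.171 in VMB.

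Probesets of the same gene did not always follow each other. The pair of Per2 probesets ran in opposite directions in NAc (r = -0.797) and VMB (r = -0.489), and in PFC they had r = 0.274. In NAc the probeset that represents Per2 ranged from 5.77 to 7.13 and was lowest in mouse 1, where the other read 6.14, its second highest value after the 6.17 of mouse 6. The probesets of Dbp rose and fell together in VMB (r = 0.811) and PFC (r = 0.608) and less in NAc (r = 0.292). Those of Nr1d2 had r = 0.663, 0.569 and 0.498 in NAc, PFC and VMB, and those of Clock 0.406, 0.0865 and 0.329. Each statement on Per2 below refers to its brighter probeset unless the other is named.

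**Figure D2:**
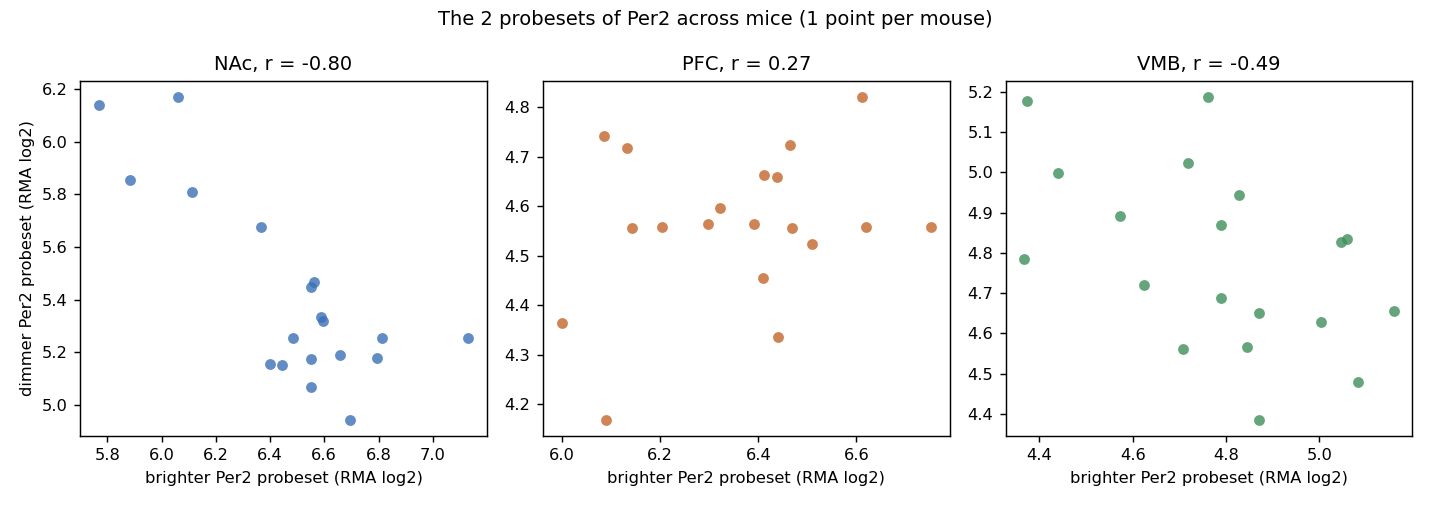
Levels of the dimmer (vertical axis) and the brighter (horizontal axis) Per2 probeset in the same arrays, both log2 intensity as deposited, 1 panel per region and 1 point per mouse. The points fall from upper left to lower right in NAc (r = -0.797) and scatter in PFC (r = 0.274).

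Relations among the members were computed over mice for all 45 pairs in each region, with r past 0.456 in size as the mark that 19 mice allow at an unadjusted p of 0.05. Wherever mice were left out, the mark was the larger r size that the same p sets for fewer mice. It was also raised where the first principal component, described below, was removed. In NAc 10 pairs passed, 6 positive and 4 negative, in PFC 1 and in VMB 9, of which 7 positive and 2 negative. As shares these were 22.2%, 2.22% and 20% of pairs, against 37.2%, 8.41% and 21.7% of all pairs of probesets in the same arrays. The share was below that of all pairs in each region, by little in VMB. After adjustment over all probesets related to the same gene, 6 pairs in NAc, 0 in PFC and 4 in VMB passed 0.05. A pair was counted if it passed with either gene as the regressor, and in PFC 1 pair passed without adjustment. Nr1d1 with Cry1 in NAc (limma adjusted p = 0.0352 and 0.0758) and Nr1d2 with Cry2 in VMB (0.0425 and 0.113) passed only 1 way. For the genes of these pairs, the share of all probesets that passed ran from 2.94% (Nr1d1) to 56.97% (Per2) in NAc. In VMB it ran from 2.54% (Cry2) to 32.58% (Nr1d2). With Spearman's rho the counts of pairs past 0.456 in size were 8, 1 and 9 in NAc, PFC and VMB.

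**Figure D3:**
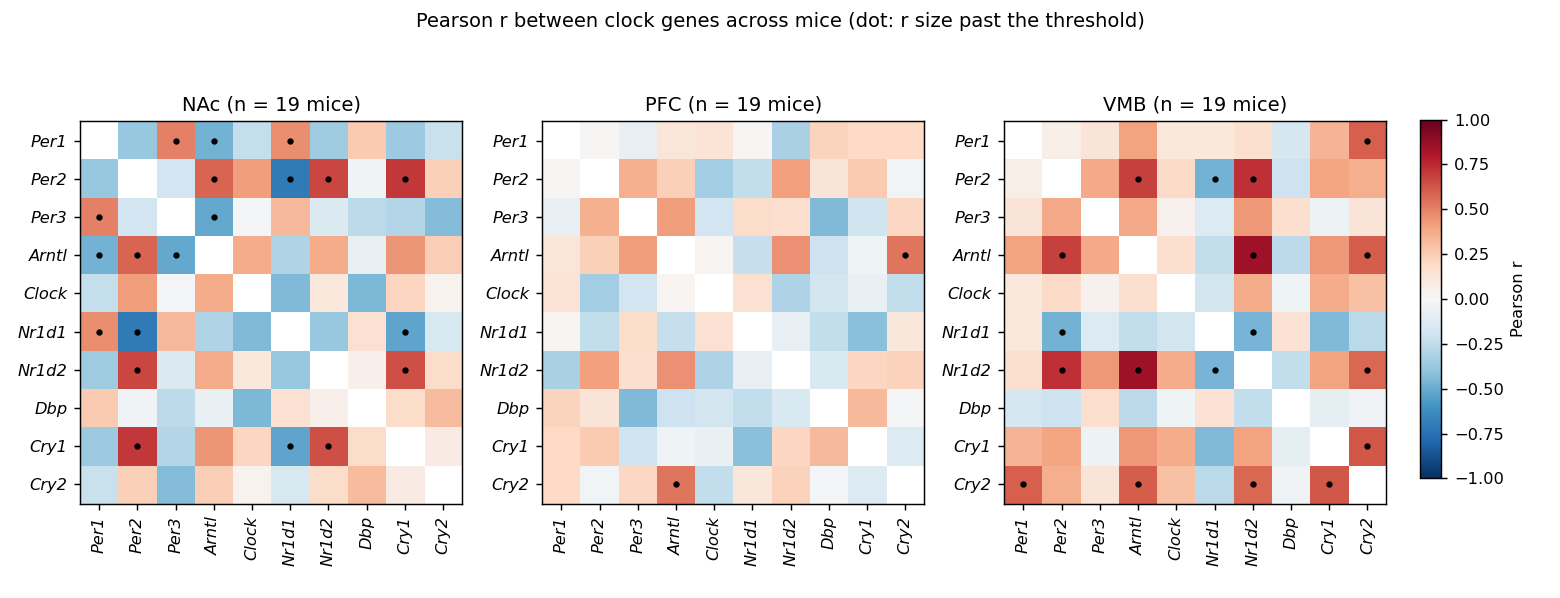
Pearson r over 19 mice for each of the 45 pairs of clock genes, 1 panel per region (colour from -1 to 1, dots on pairs past the mark). The panels of NAc and VMB hold 10 and 9 pairs past 0.456 in size, that of PFC 1.

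The closest pair was Arntl and Nr1d2 in VMB. The levels of this activator and of the receptor that represses it rose and fell together over mice, where r was 0.850 (permutation p = 2.0e-05) and rho 0.746 (permutation p = 0.00051). The value was 0.752 once the pair of mice most distant in Arntl was left out, and leaving out any 1 mouse kept it at 0.815 or above. Over the 19 mice of each other region r was 0.374 in NAc (permutation p = 0.114) and 0.454 in PFC (permutation p = 0.0528), and these differences between regions were not tested. With the other Nr1d2 probeset the VMB value was 0.373.

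**Figure D4:**
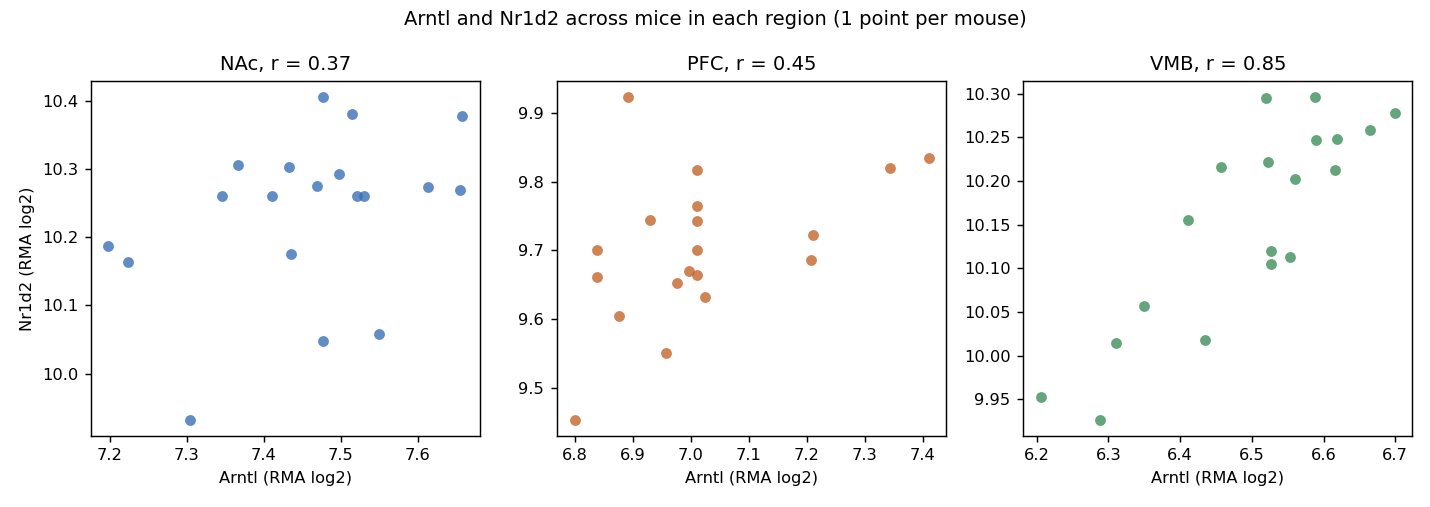
Levels of Arntl and Nr1d2 (log2 intensity as deposited) in the same array, 1 panel per region and 1 point per mouse. The VMB points lie along a rising line (r = 0.850), those of NAc and PFC are more spread (r = 0.374 and 0.454).

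Per2 stood in the same group in VMB. It rose with Nr1d2 (r = 0.731, permutation p = 0.00044, rho = 0.680, permutation p = 0.00176, r = 0.653 without the 2 farthest mice) and with Arntl (r = 0.687, permutation p = 0.0011, rho = 0.535, permutation p = 0.0192, r = 0.526 without the 2). The adjusted p was 0.00247 for the first pair with Nr1d2 as the regressor and 0.0177 for the second with Arntl. Cry2 joined the group, with r = 0.605 to Arntl (permutation p = 0.00619), 0.578 to Nr1d2 (permutation p = 0.0103), 0.624 to Cry1 (permutation p = 0.00386) and 0.597 to Per1 (permutation p = 0.00665). Nr1d1 ran the other way, with r = -0.470 to Per2 and -0.462 to Nr1d2, at permutation p = 0.0428 and 0.0465. Both were weak, since without mouse 1 they were -0.357 and -0.380, and the second stayed past the mark in 5 of 19 runs that left out 1 mouse. The positive pairs of Per2 turned to -0.497 with Arntl and to 0.000838 with Nr1d2 when its other probeset was used.

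In NAc the pairs were centred on Per2. It rose with Cry1 (r = 0.706, permutation p = 0.00063, rho = 0.735, permutation p = 0.00065), Nr1d2 (r = 0.669, permutation p = 0.00191, rho = 0.548, permutation p = 0.0168) and Arntl (r = 0.579, permutation p = 0.00933, rho = 0.516, permutation p = 0.0252). It fell as Nr1d1 rose (r = -0.707, permutation p = 0.00073, rho = -0.612, permutation p = 0.00591). Without the 2 farthest mice these were 0.681, 0.518, 0.335 and -0.652. With the other Per2 probeset all 4 changed sign, to -0.710, -0.654, -0.493 and 0.495. Nr1d2 and Cry1 were also related (r = 0.642, permutation p = 0.00235). In PFC the only pair past the mark was Arntl and Cry2 (r = 0.537, permutation p = 0.0172, rho = 0.555, permutation p = 0.0148), which was also related in VMB.

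Across regions, 4 of 45 pairs passed the mark in more than 1: Per2 with Arntl, with Nr1d1 and with Nr1d2 in NAc and VMB, and Arntl with Cry2 in PFC and VMB.

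Much of the variation among arrays of a region lay along 1 axis, the first principal component of all probesets, which held 51.2% of the variance in NAc, 17.2% in PFC and 32.4% in VMB. In NAc, Per2 (r = -0.878), Nr1d2 (-0.764), Cry1 (-0.727) and Arntl (-0.657) moved with that component, and in VMB so did Nr1d2 (-0.847), Per2 (-0.695) and Arntl (-0.683). With the component removed, 1 pair in NAc, 2 in PFC and 7 in VMB passed the mark, and without the 3 NAc arrays farthest along it, those of mice 1, 6 and 19, 2 pairs did. Arntl and Nr1d2 in VMB then had r = 0.699, and the 4 pairs of Cry2 there stayed past the mark. The other 4 of the 9 VMB pairs did not, with Per2 at 0.404 to Arntl, 0.373 to Nr1d2 and -0.230 to Nr1d1, and Nr1d1 at -0.144 to Nr1d2. In NAc, Per2 then had 0.00612 with Arntl and -0.00529 with Nr1d2. Markers of the choroid plexus, an epithelium of the ventricles that can enter a dissection, had a mean level that rose with the component in NAc (r = 0.937), and Per2 fell as Ttr, the transthyretin gene and one of those markers, rose (r = -0.902, permutation p = 1.0e-05, the smallest that the permutations can give). The mean level of the 5 striatal neuron markers tested rose with Nr1d1 in NAc (r = 0.836, 5 of 5 past the mark) and fell as Per2 rose (r = -0.576, 2 of 5). The part of that component and of those cells in the pairs was not tested. Past the same mark with Per2 in NAc were 61.8% of all probesets, and with Nr1d2 in VMB 43.4%.

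Within the list of further clock genes, Bhlhe40 and Bhlhe41, which encode repressors that compete for E-boxes, followed several members. In NAc, Bhlhe40 fell as Nr1d1 rose (r = -0.875, permutation p = 1.0e-05, rho = -0.854, adjusted p = 0.0124) and rose with Per2 (r = 0.838, permutation p = 1.0e-05, adjusted p = 0.000196). Past the mark with Nr1d1 in NAc were 34.6% of all probesets. In VMB, Bhlhe41 fell as Nr1d2 rose (r = -0.740, permutation p = 0.0005, rho = -0.794, adjusted p = 0.00431). The mean of Bhlhe41 there was 4.39 (SD 0.145), below the filter value, so this relation was read near the low end of the scale. In NAc, where Bhlhe41 averaged 5.32, the same pair had r = -0.711 (permutation p = 0.00055), and in PFC r was 0.183.

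Dbp had no relation past the mark with any other member in any region. Over mice its r with the other 9 genes ran from -0.452 to 0.317 in NAc, from -0.438 to 0.321 in PFC and from -0.264 to 0.171 in VMB. In limma regressions on Dbp over all probesets, 0 members passed an adjusted p of 0.05 in any region, beside 0%, 0.0404% and 0% of all probesets in NAc, PFC and VMB. At an unadjusted p under 0.05 there were also 0 members, beside 8.2%, 11.2% and 9.08% of all probesets. The slopes on Dbp differed between regions for 0 members, and for 0% of probesets in each of the comparisons NAc with PFC (0%), NAc with VMB (0%) and PFC with VMB (0%). The smallest unadjusted p of a member for such a difference was 0.0908, between PFC and VMB.

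The genes most like Dbp were sought among 11326 genes by the mean over regions of their within-region r with it. The highest means were those of Mien1 (0.697), Rexo2 (0.663), Pomgnt1 (0.651), Zdhhc14 (0.649) and Eef1akmt1 (0.644), and the lowest those of Prpf38b (-0.608), Ccni (-0.540), Dhx15 (-0.529), Kcnj3 (-0.526) and Srek1 (-0.519). In NAc the closest were Bscl2 (0.826), Cbr3 (0.824) and Nucb2 (0.806), in PFC Sec61a1 (0.872), Igdcc4 (0.847) and Clu (0.844), and in VMB Pomgnt1 (0.831), Apcdd1 (0.821) and Sh3bgrl3 (0.817). The members themselves were left out of this search, so their absence from these names was fixed in advance. None of the genes named is on the list of further clock genes. Of those named, Sec61a1 and Igdcc4 in PFC passed adjustment, at 0.0206 and 0.0364.

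Dbp also moved with markers of microglia, the resident macrophages of the brain. Of 6 such markers, 3 in NAc, 4 in PFC and 4 in VMB had r with Dbp past 0.456, all positive, beside 8.8%, 10.9% and 8.63% of all probesets past it in either direction. In VMB these were Aif1 (r = 0.690), Tyrobp (0.679), C1qa (0.627) and Csf1r (0.533), and all 4 stayed past the mark without mouse 10, as did 3 of the 4 in PFC. In PFC they included C1qa (0.628), Csf1r (0.593) and Tyrobp (0.590). Other cell types moved with it too. The mean level of endothelial and mural markers rose with Dbp in PFC (r = 0.641, 3 of 6 past the mark) and VMB (r = 0.552, 1 of 6), and that of cortical neuron markers fell as Dbp rose in PFC (r = -0.650, 3 of 4). None of the microglia markers passed adjustment over all probesets. The part of these cells in the level of Dbp was not tested.

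A single mouse set several relations of Dbp, a pattern found after the values were seen. Mouse 10, for which no NAc array was used, had the lowest Dbp of 19 in PFC, at 9.45 against 9.66 to 10.11 (median 9.92) in the others, and in VMB, at 8.89 against 9.25 to 9.90 (median 9.63). The same mouse had the highest Fkbp5, a gene that glucocorticoid hormones induce, at 8.63 against 6.90 to 7.52 in PFC and at 8.41 against 7.005 to 7.31 in VMB. Sgk1, Tsc22d3 and Sult1a1 of the same list were also highest in mouse 10 in both regions, and Sgk1 in VMB stood at 10.63 against 7.92 to 9.85. Its Cry1 and Cry2 were the highest of 19 in VMB, at 6.27 and 7.52, while in PFC its Cry1 was the second lowest, at 4.86 against a median of 5.22, and its Cry2 was at 8.18 against 8.07. Its Per1, itself a gene that glucocorticoids induce, was at 7.15 in PFC against a median of 7.15 in the others and the second highest of 19 in VMB, after a mouse at 7.08.

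**Figure D5:**
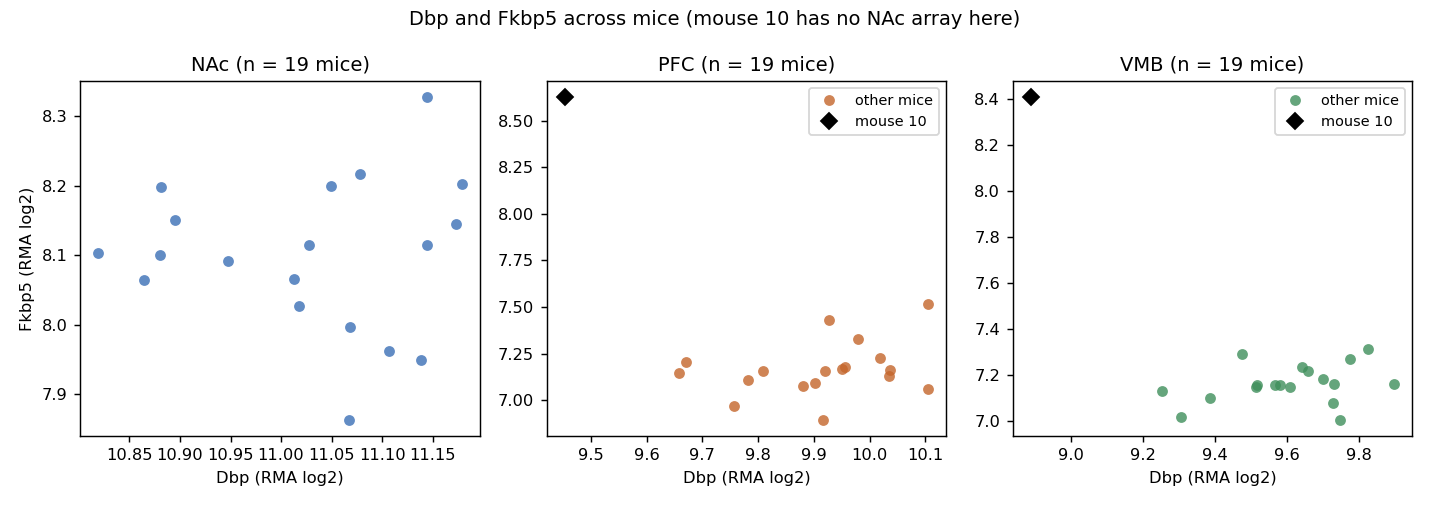
Level of Fkbp5 (vertical axis) against that of Dbp (horizontal axis), both log2 intensity as deposited, in the same array, 1 panel per region and 1 point per mouse, with mouse 10 marked. In PFC and VMB mouse 10 lies apart at the highest Fkbp5 and the lowest Dbp, and the other mice show no fall of Dbp with Fkbp5.

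Dbp and Fkbp5 had r = -0.489 in PFC and -0.605 in VMB, and without mouse 10 these became 0.308 and 0.322. Relations of Dbp to members in VMB also moved. Without mouse 10, r rose from -0.0888 to 0.458 with Cry1 and from -0.0364 to 0.407 with Cry2, and fell from 0.171 to 0.0164 with Per3. In VMB, 4 of 6 glucocorticoid-responsive genes were past the mark with Dbp and 4 with Cry1, and without mouse 10 both counts were 0. Past it with Cry1 in VMB were 25.7% of all probesets. Mouse 10 was extreme in other genes as well. It was lowest in both regions in 0.898% of probesets (178, against 7 to 135 in each of the other 17 mice). It was highest in both in 1.15% (228, against 4 to 181). Mouse 1 came next in both counts, at 135 and 181. The number of mice does not allow a test of 1 animal against the rest.

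Arntl in PFC rose with genes that neurons induce within minutes of activity. Of 9 immediate early genes 6 passed the mark, beside 10.8% of all probesets in either direction, and they were led by Junb (r = 0.761, permutation p = 0.00018, rho = 0.676, permutation p = 0.00188) and Nr4a1 (r = 0.743, permutation p = 0.00041, rho = 0.589, permutation p = 0.00935). Without the 2 farthest mice these were 0.457 and 0.440, and leaving out mouse 3 alone gave 0.625 and 0.593, and for Egr1 and Egr2, 0.207 and 0.287 in place of 0.535 and 0.583. These relations thus rest in part on the mice at the ends. None passed adjustment over all probesets (adjusted p = 0.160 and 0.167). In VMB, Nr1d2 rose with Tsc22d3, a glucocorticoid-responsive gene (r = 0.791, permutation p = 0.0001, rho = 0.818, adjusted p = 0.00196), and r was 0.783 without mouse 10.

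Last, each gene was compared between regions of the same mouse, read from the number in the titles, over 18 mice for each pair of regions. Between NAc and PFC 3 members were related at an unadjusted p under 0.05, Per2, Dbp and Nr1d2, beside 3.95% of all probesets that were so related and positive. Per2 had r = 0.601 (permutation p = 0.00754, rho = 0.450, permutation p = 0.0628, r = 0.495 without the 2 farthest mice). Dbp had r = 0.578 (permutation p = 0.0129, rho = 0.496, permutation p = 0.0379, r = 0.383 without the 2). Nr1d2 had r = 0.518 (permutation p = 0.0317, rho = 0.432, permutation p = 0.0755, r = 0.459 without the 2). None passed adjustment (adjusted p from 0.958 to 0.973), where 0.0151% of probesets did.

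Of these, Per2 and Nr1d2 in both regions and Dbp in PFC were highest in mouse 20, whose PFC array has the conflicting label. Without it r was 0.480, 0.579 and 0.421 for Per2, Dbp and Nr1d2. The other probesets of Dbp, Per2 and Nr1d2 had r = 0.060, -0.071 and 0.177 between NAc and PFC. Between NAc and VMB and between PFC and VMB, 0 members were related at an unadjusted p under 0.05, beside 5.27% and 3.3% of probesets, and 0 passed adjustment, beside 0.0151% and 0.0252%. The median r of the members was 0.362 between NAc and PFC, 0.0780 between NAc and VMB and -0.0279 between PFC and VMB, against 0.0786, 0.119 and 0.0160 over all probesets. For Dbp between PFC and VMB r was 0.438 (permutation p = 0.0696) and -0.0231 without mouse 10. Its other probeset had r = 0.587 there (permutation p = 0.00958, rho = 0.449, permutation p = 0.0628), and 0.308 without mouse 10. That probeset did not pass adjustment (adjusted p = 0.735).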

How the data were processed

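The authors hybridised RNA of individual mice to Affymetrix mouse expression arrays, processed the scans with GCOS and deposited RMA values, which are log2 intensities per probeset after background correction, quantile normalization and median polish. Array number, not read depth, limits precision. Probesets at 4.5 or above on at least 1 of 57 arrays were kept (19815, with 2811 left out), after the filter in the study's methods. Of 22626 probesets 20380 had 1 symbol, 691 several and 1555 none in the platform annotation. Samples were grouped by title.

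Region differences were fitted with limma 3.58.1 (R 4.3.3) on values quantile-normalized over all arrays, without a block, with Benjamini-Hochberg adjustment over all tested probesets and a minimum difference of 0.5. Relations over mice used deposited values, Pearson's r, Spearman's rho and two-sided permutation p-values from 100000 permutations (Python 3.11.15, scipy 1.17.1). Pairs of members and relations to Dbp were adjusted with limma regressions over all tested probesets. Relations of members to listed genes, and those between regions of the same mouse, were adjusted from t-test p-values of Pearson's r over all tested probesets. The same number in the titles was read as the same mouse, because the study hybridised RNA of individual animals once per region, though the labels do not state it. Each region holds 19 of the numbers 1 to 20, without 10 in NAc, 6 in PFC and 20 in VMB. Over all probesets, deviations from the region means of arrays with the same number had a mean correlation of 0.0618, 0.0837 and 0.0130 between NAc and PFC, NAc and VMB, and PFC and VMB, and 1, 2 and 1 of 18 arrays correlated best with their own number. The replicate samples were separate animals.

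All 10 members are named, and other genes where they pass the test within a list or rank nearest to Dbp. The members, lists and tests were chosen with earlier results of these data known. Promoters came from a RefSeq table (GRCm38.p6). The tests were checked on simulated data. Alternatives were the scale, filter, minimum difference, array weights, next probeset, removal of the first principal component, the replicate block and arrays left out. The removal of the arrays at the ends of that component, of mouse 10 and, for pairs, of the PFC array of mouse 20 was chosen after seeing the data.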

Additional observations from a re-analysis of the deposited data

How the results depend on the processing

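Counts of members called between regions moved with the scale and the minimum difference. The main counts were 3, 4 and 3 members between NAc and PFC, NAc and VMB, and PFC and VMB. The values as deposited gave 6 and 7 for the first and second, beside 14106 and 11618 of all 19815 probesets. A minimum difference of 1 gave 0, 1 and 1, beside 1285, 1873 and 1876 probesets. For PFC and VMB both centring each array on its median and array weights gave 5, beside 5970 and 5866 probesets. On the deposited scale Per2 between NAc and PFC turned from -0.51 to 0.12 and Nr1d2 between NAc and VMB from -0.57 to 0.0816. With each array centred on its median, Nr1d2 between NAc and VMB came to -0.383, under the minimum difference. Dbp between NAc and PFC came to 0.517 there, above it. With the replicate block, which pairs arrays of the same mouse, the counts stayed at 3, 4 and 3, no other call of a member changed, and the slope differences on Dbp stayed at 0 members (consensus correlation 0.0546).

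Counts of related pairs were 10, 1 and 9 in NAc, PFC and VMB. The next highest probeset gave 22, 5 and 15, removing the first principal component gave 1 in NAc and 2 in PFC, leaving out the 3 arrays farthest along it gave 2 in NAc and 2 in PFC, and without the PFC array of mouse 20 the count in PFC was 2. Without mouse 10 the counts were 1 in PFC and 12 in VMB. The next highest probeset reversed, in NAc, Per2 with Arntl (-0.493), with Nr1d1 (0.495), with Nr1d2 (-0.654) and with Cry1 (-0.710), and in VMB Per2 with Arntl (-0.497), Per2 with Nr1d1 (0.549) and Nr1d2 with Cry2 (-0.169). With the component removed, Per2 with Nr1d2 in NAc came to -0.00529. The cause was not tested. Counts for Dbp and for the same mouse in a pair of regions stayed at 0 after adjustment under every alternative run, while unadjusted counts were 0 or 1 for Dbp and 0 to 3 for the same mouse.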
